A study of Homo sapiens with 26 samples.

Results

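Of the 13 proteins that human mitochondria make from their own DNA, 6 are described here by their ribosome footprints in Huh7 cells, a line derived from a human hepatocellular carcinoma. They are MT-CO1, MT-CO2 and MT-CO3, the core of cytochrome c oxidase (complex IV), MT-ATP6 and MT-ATP8, subunits of ATP synthase (complex V), and MT-CYB, the cytochrome b of complex III. They were chosen by name, as the 6 transcripts of these genes among the 12325 transcripts listed in each file of reads per codon, and the other 7 mitochondrially encoded subunits, all of complex I, served for comparison. PF-06446846 is a small molecule that the study examined as a stalling agent of the cytosolic human ribosome. The question for these 6 transcripts is whether their footprints changed with it.

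Cells of the first study were kept with PF-06446846, at 1.5 µM or 0.3 µM, or with vehicle for 10 min or 60 min, and each of these 6 groups had 3 ribo-seq libraries. In the second study, cells kept for 60 min with 1.5 µM or vehicle gave both ribo-seq and mRNA-seq, with replicates 4 and 5 of each. Vehicle was 0.5% DMSO, and all libraries came from cultures of 1 cell line. The spread between replicates is that between cultures and between library preparations, which cannot be told apart. Ribo-seq reads out the stretches of mRNA that lie under a ribosome and so escape nuclease, and cycloheximide, a blocker of cytosolic but not of mitochondrial ribosomes, was added at harvest only. Ribo-seq libraries held 6414227 to 22224137 reads on coding sequences (CDS) and mRNA-seq libraries 15227654 to 22036358. The hepatoma marker AFP had 8878 to 14910 reads per 1000000 CDS reads (RPM) in ribo-seq, the endothelial marker PECAM1 11.5 to 26.7, and the fibroblast marker DCN at most 0.257. In mRNA-seq, AFP had 2704 to 2963 RPM, PECAM1 12.1 to 14.7 and DCN 3.63 to 6.19. RPM is a share of a culture's reads, so that fewer footprints per cell and fewer contributing cells cannot be told apart. No replicate was a copy of another of its group, since the smallest chi-square per degree of freedom between them was 4.45.

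Mitochondrial mRNAs are made as long transcripts of both strands of a small circular genome, cut at the tRNAs that lie between the genes, and translated by a ribosome of bacterial type inside the organelle. Their genetic code differs from the cytosolic one in that TGA encodes tryptophan and ATA methionine. MT-ATP8 and MT-ATP6 stay on 1 mRNA, where the end of the first reading frame overlaps the start of the second in another frame. The 3 oxidase subunits, the 2 synthase subunits and cytochrome b assemble with nuclear-encoded partners at the inner membrane, where they carry out the last electron transfers to oxygen and the synthesis of ATP.

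All 6 transcripts lie on the plus strand of chrM in GRCh38, each as a single uninterrupted CDS. MT-CO1 (ENST00000361624) spans chrM:5904-7445 and has 514 codons, and MT-CO2 (ENST00000361739) spans chrM:7586-8269 with 228. MT-ATP8 (ENST00000361851) spans chrM:8366-8572 with 69 codons, MT-ATP6 (ENST00000361899) chrM:8527-9207 with 227, and MT-CO3 (ENST00000362079) chrM:9207-9990 with 261. MT-CYB (ENST00000361789), between genes of complex I and the control region, spans chrM:14747-15887 with 380 codons. The footprints of each transcript peaked at a few codons, which are printed here with 15 bases on either side because later results refer to them. The codon with the highest median density over the 22 ribo-seq libraries is in capitals, counted from the first codon of each CDS, and the sequences are those of the GRCh38 reference.
MT-CO1 codon 108, chrM:6210-6242: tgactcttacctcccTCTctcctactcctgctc
MT-CO2 codon 130, chrM:7958-7990: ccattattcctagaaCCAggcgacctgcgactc
MT-CO3 codon 45, chrM:9324-9356: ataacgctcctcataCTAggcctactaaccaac
MT-ATP8 codon 55, chrM:8513-8545: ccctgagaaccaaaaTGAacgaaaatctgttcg
MT-ATP6 codon 173, chrM:9028-9060: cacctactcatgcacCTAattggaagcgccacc
MT-CYB codon 294, chrM:15611-15643: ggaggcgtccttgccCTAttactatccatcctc

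Footprints on the 6 transcripts together made up 0.0420% to 0.379% of the CDS reads of a ribo-seq library, against 4.74% to 5.99% in mRNA-seq. To compare genes of different length, levels are given as RPM per 1000 codons. MT-CO1, which holds the oxygen-binding site of the oxidase, had the highest level, with a median of 1443 (405.9 to 4135) over the 22 ribo-seq libraries, and ranked first of the 6 in 21 of them. MT-CO3, another core subunit, followed with a median of 1069 (295 to 2707) and ranked first in the remaining library. Both were above each of the other 4 transcripts in 22 of 22 libraries.

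The remaining 4 had levels that lay close together. The median was 459 (115 to 1020) for MT-CO2, the subunit that takes electrons from cytochrome c, and 456 (205 to 1044) for MT-ATP8. It was 447 (174 to 1140) for MT-CYB and 402 (103 to 1029) for MT-ATP6, the subunit that forms the proton path of the synthase. MT-CYB was above MT-ATP6 in 20 of 22 libraries, while MT-CO2 was above MT-ATP6 in 14, MT-ATP8 above MT-CYB in 12 and MT-CO2 above MT-ATP8 in 10, so the order among these neighbours changed from library to library. Placed among all transcripts with reads, the 6 had median percentiles between 88.5 (MT-ATP6) and 96.2 (MT-CO1).

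In mRNA-seq the order was different. MT-CO3 ranked first of the 6 in all 4 libraries, with 48826 to 56870 RPM per 1000 codons, then MT-CO1 with 37709 to 47491 and MT-CO2 with 22554 to 33474. MT-ATP6 (14783 to 20999) and MT-CYB (15616 to 19779) shared the next 2 places, and MT-ATP8 was last with 6848 to 11133. Each was above 99.4% or more of the transcripts with reads, in libraries selected for poly-A tails. In ribo-seq, MT-ATP8 was the lowest of the 6 in 9 of 22 libraries, MT-ATP6 in 8 and MT-CO2 in 5.

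**Figure D1:**
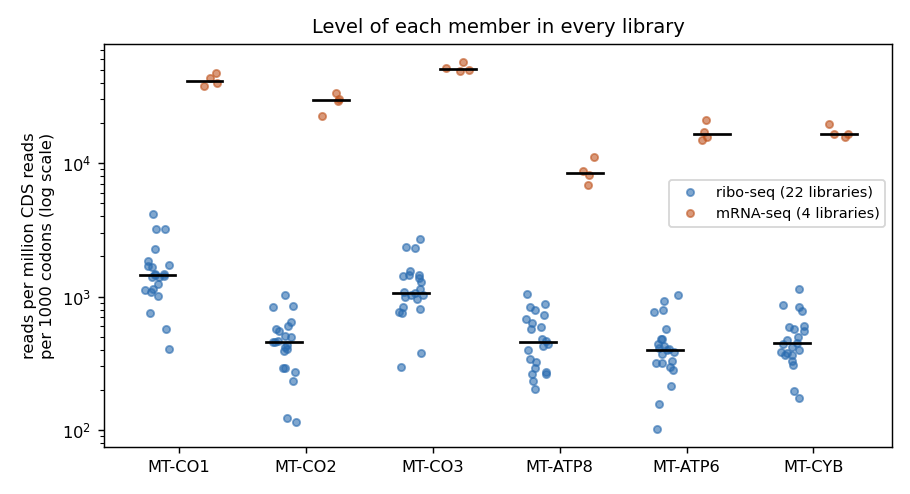
Level of each of the 6 transcripts as RPM per 1000 codons (log axis), with 1 point per library and a bar at the median, for 22 ribo-seq and 4 mRNA-seq libraries. MT-CO1 and MT-CO3 lie above the other 4 in ribo-seq, and MT-ATP8 is the lowest in 4 of 4 mRNA-seq and 9 of 22 ribo-seq libraries.

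The ratio of the ribo-seq to the mRNA-seq level, taken within each group and replicate number of the second study, was far below that of most transcripts. MT-CO2 had the lowest ratio of the 6, at 0.0104 to 0.0171, and only 1 to 3 of the 10893 transcripts compared lay lower. The ratios were 0.0145 to 0.0309 for MT-ATP6, 0.0155 to 0.0291 for MT-CO3, 0.0188 to 0.0379 for MT-CYB and 0.0201 to 0.0384 for MT-CO1. MT-ATP8 had the highest, at 0.0492 to 0.106, with 40 to 163 transcripts lower. This place rested on codons it shares with MT-ATP6, described further on, and without the overlap, an alternative chosen after the data had been seen, its ratio was 0.01400 to 0.0384, beside 0.0104 to 0.0384 for the other 5. The median transcript exceeded MT-CO2 by 53.5-fold to 87.9-fold and MT-ATP8 by 8.60-fold to 18.6-fold. Among the 7 complex I subunits the ratios ran from 0.00749 for MT-ND1 to 0.0615 for MT-ND5. These ratios compare levels within a library type. The yield of mitochondrial ribosomes during footprint preparation, which could scale all of them, was not tested. The mRNA-seq libraries were selected for poly-A tails, and how evenly that recovered the single transcripts was not tested either.

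The 6 transcripts went up and down together between libraries of the same group, more than most comparisons between groups. Summed over the 6, vehicle libraries after 10 min held 551, 2263 and 1373 RPM in replicates 1, 2 and 3, and those with 1.5 µM held 1029, 1748 and 1851. With 0.3 µM the values after 10 min were 420, 3792 and 1491 RPM, a range of 9.04-fold within 1 group. After 60 min, vehicle libraries held 3022, 1636 and 1383 RPM, those with 0.3 µM 1099, 3018 and 1416, and those with 1.5 µM 1060, 1362 and 1238. In the second study the values were 1205 and 1733 RPM for vehicle and 836 and 1533 for 1.5 µM in replicates 4 and 5. Replicate 1 was the lowest library at 10 min in all 3 groups, and the highest of its group only with vehicle after 60 min.

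**Figure D2:**
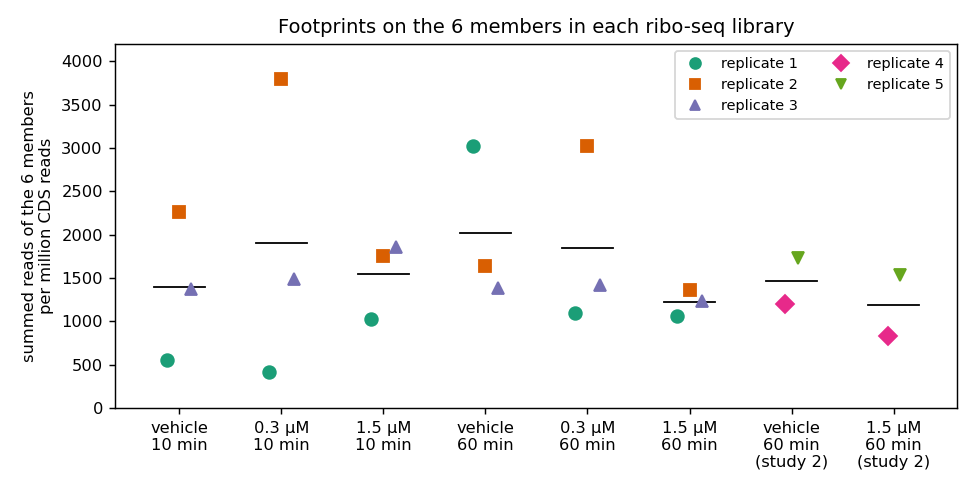
Reads on the 6 transcripts together in RPM, 1 point per ribo-seq library, with the replicate number given by colour and shape and a line at the group mean. Libraries with 1.5 µM after 60 min span 1060 to 1362 and vehicle libraries after 60 min 1383 to 3022, while every other pair of groups compared overlaps.

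This shared movement was also seen library by library. Over the 18 ribo-seq libraries of the first study, the log2 level of a transcript correlated with the mean of the other 5 at r = 0.992 for MT-CYB, 0.986 for MT-ATP6 and for MT-CO1, 0.981 for MT-CO3, 0.928 for MT-CO2 and 0.746 for MT-ATP8. Outside the 6, the transcripts most like their mean were MT-ND4 (r = 0.980), MT-ND3 (0.977), MT-ND1 (0.972), MT-ND5 (0.95) and MT-ND2 (0.940), all mitochondrially encoded subunits of complex I. The nearest nuclear transcript was ABRACL, at 0.915. These points share libraries and their depth, and the correlations are given as a description.

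After 60 min, 1.5 µM PF-06446846 went with fewer footprints on the 6 transcripts, and the sum did not overlap between groups. Its mean was 2014 ± 882 RPM (SD, n = 3) with vehicle and 1220 ± 152 (n = 3) with the compound, a log2 ratio of -0.72 (exact permutation test, two-sided, p = 0.1, the smallest that 3 against 3 allow). Here and for later sums the log2 ratio is that of the group means, while the test compares means of log2 values. The distance between the groups rested largely on vehicle replicate 1, and leaving out 1 library in turn gave log2 ratios between -0.93 and -0.31. That vehicle library was also the shallowest of the group at 6414227 reads, while replicate 1 with 1.5 µM was the deepest at 22224137. The part of depth in the result was not tested.

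The single transcripts had the following values after 60 min, for replicates 1, 2 and 3. MT-ATP6 had 212, 90.5 and 87.2 RPM with vehicle and 75.5, 67.6 and 71.7 with 1.5 µM. MT-CYB had 320.2, 181 and 151 RPM with vehicle and 126, 145 and 140 with the compound. For these 2 transcripts every treated library was below every vehicle library. MT-ATP8 had 46.6, 44.1 and 22.2 RPM against 23.6, 14.2 and 16.2, MT-CO1 had 1649, 867 and 747 against 573, 753 and 642, and MT-CO3 had 600.1, 360 and 269 against 199.96, 277 and 253. MT-CO2 had 194, 93.0 and 106 RPM with vehicle and 61.7, 105 and 116 with 1.5 µM, and its groups overlapped most. Across all 9623 transcripts with at least 50 reads on average, 2.76% were lower and 3.61% higher in every treated library. Here 2 of 6 were lower and 0 of 6 higher. The 6 moved together between libraries, so they are not 6 separate observations.

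The edgeR quasi-likelihood test over all transcripts called none of the 6 after 60 min at a false discovery rate (FDR) of 0.1, with Benjamini-Hochberg adjustment over 11021 transcripts of which 0.0726% were called. The log2 fold changes were -1.05 ± 0.25 (SE) for MT-ATP8, -0.84 ± 0.26 for MT-ATP6, -0.74 ± 0.23 for MT-CO3, -0.71 ± 0.24 for MT-CO1, -0.65 ± 0.22 for MT-CYB and -0.46 ± 0.27 for MT-CO2. Of the 6 unadjusted p-values, 5 lay between 0.0013 and 0.01 and that of MT-CO2 was 0.115, and the lowest adjusted p from edgeR was 0.718, for MT-ATP8. The median over the 6 was -0.73, while that over all transcripts tested was -0.0022. With a library left out in turn, the median over the 6 ran from -0.94 (without vehicle replicate 3) to -0.32 (without vehicle replicate 1). The other 7 mitochondrially encoded transcripts were in the same range, with log2 fold changes from -0.83 (MT-ND6) to -0.54 (MT-ND4L), a median of -0.66 and 0 of 7 called.

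The call for MT-ATP8 and MT-ATP6 turned on the model. Over 9623 transcripts, same-numbered libraries of these groups deviated together (correlations of 0.409 to 0.535). In the sum of the 6, replicate 1 was the highest with vehicle (3022 RPM) and the lowest with 1.5 µM (1060). For MT-ATP8 and MT-ATP6 it was the highest in both groups. With the replicate number as a block, edgeR called 2 of 6 in a fit that called 0.463% of all transcripts. These were MT-ATP8 (log2 fold change -1.02, adjusted p = 0.00591) and MT-ATP6 (-0.75, adjusted p = 0.0838). DESeq2 without a block called MT-ATP8 alone of the 6 (-1.05, adjusted p = 0.0243) and 0.141% of 12026 transcripts. Without vehicle replicate 3, edgeR also called MT-ATP8, at -1.31, and 0.0359% of 11135 transcripts. The 8 calls over all transcripts became 0 without vehicle replicate 2, 4 without vehicle replicate 3, and 5 and 1 without replicates 1 and 3 of 1.5 µM.

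After 10 min of 1.5 µM PF-06446846 the levels of the 6 transcripts overlapped between groups. The summed mean was 1396 ± 857 RPM (SD, n = 3) with vehicle and 1543 ± 448 with the compound, a log2 ratio of 0.14 (exact permutation p = 0.7). In edgeR none of the 6 was called, while 0.851% of 11045 transcripts were. That count of 94 became 9, 57 and 1656 without vehicle replicates 1, 2 and 3, and 12, 12 and 60 without those of 1.5 µM, with 0 of 6 called each time. Single libraries also turned directions: without vehicle replicate 2 all 6 log2 fold changes were above 0 (0.18 for MT-ATP8 to 0.89 for MT-CO3), and without vehicle replicate 1 all but MT-CO3 (0.0125) were below 0. Log2 fold changes were 0.40 ± 0.35 (SE) for MT-CO3, 0.30 ± 0.41 for MT-CO2, 0.19 ± 0.33 for MT-CYB, 0.18 ± 0.35 for MT-CO1 and 0.07 ± 0.39 for MT-ATP6, against -0.50 ± 0.36 for MT-ATP8. All 6 overlapped in RPM between groups, where 16.2% of 9614 transcripts were lower and 7.97% higher in every treated library.

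In the second study the 6 log2 fold changes were below 0 with all libraries, as after 60 min in the first, and the direction changed with the libraries kept. The summed mean was 1469 ± 374 RPM (SD, n = 2) with vehicle and 1184 ± 493 with 1.5 µM, a log2 ratio of -0.31 (exact permutation p = 0.67, where 2 against 2 cannot go below 0.33). Within each number the treated library was the lower, 836 against 1205 RPM for replicate 4 and 1533 against 1733 for replicate 5. The edgeR log2 fold changes were -0.44 ± 0.21 (SE) for MT-CO2, -0.41 ± 0.23 for MT-ATP6, -0.33 ± 0.24 for MT-CO1, -0.27 ± 0.20 for MT-CO3, -0.26 ± 0.21 for MT-CYB and -0.13 ± 0.24 for MT-ATP8. None was called without a replicate block, with 0.115% of 11263 transcripts called. The calls rested on single libraries: without replicate 5 of 1.5 µM, the higher treated library, edgeR called 6 of 6 and 1.14% of 11346 transcripts, and without replicate 4 of 1.5 µM 0 of 6, with 31 transcripts called in place of 13. These fits set 1 treated library against 2 vehicle libraries, and the lone library is assumed to vary like vehicle. The direction turned without replicate 4 of 1.5 µM, where 5 of 6 log2 fold changes were above 0 (0.00145 for MT-ATP6 to 0.28 for MT-ATP8) and MT-CO2 had -0.0746. Without vehicle replicate 5, 3 of 6 were above 0 (0.00546 for MT-CO3, 0.0212 for MT-ATP8 and 0.0267 for MT-CO1) and the others were -0.0384 for MT-CYB, -0.21 for MT-ATP6 and -0.24 for MT-CO2. With all libraries and the replicate number as a block, edgeR called 5 of 6, all but MT-ATP8, and 1.15% of all transcripts. The 2 pairs correlated at 0.297, which was not taken as pairing. No transcript of the 6 was free of overlap in RPM, where 14.2% of 9823 transcripts were lower and 15.5% higher in both treated libraries.

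The mRNA-seq libraries of the same study had overlapping sums. Their titles name both groups mRNA-seq, and the study describes the same poly-A protocol for all of them. A further label names the vehicle libraries polyA-seq and the treated ones mRNA-seq. A difference in preparation, if there was any, and the treatment cannot be told apart. The 6 transcripts together had 51521 and 51930 RPM with vehicle and 47441 and 59936 with 1.5 µM (log2 ratio 0.05, exact permutation p = 1.0). The edgeR log2 fold changes ran from -0.10 ± 0.15 (SE) for MT-CO2 to 0.29 ± 0.16 for MT-ATP8, with 0 of 6 called and 0.0% of 11812 transcripts called (228 had an unadjusted p under 0.05, and DESeq2 called 1). Translational efficiency, tested as an interaction term between library type and treatment, had log2 fold changes from -0.53 ± 0.37 for MT-ATP6 to -0.32 ± 0.30 for MT-CO3, 0 of 6 called and 0.0339% of 11799 transcripts called (DESeq2 called 11, and edgeR with the replicate block 13). The 4 calls of edgeR without the block became 128 without vehicle mRNA replicate 4, stayed at 4 without vehicle mRNA replicate 5 and were 1 without any other single library, with 0 of 6 called each time. Without ribo-seq replicate 4 of 1.5 µM, the log2 fold changes of MT-CO1, MT-CO2 and MT-CO3 were above 0 (0.0422, 0.0244 and 0.0203). The study states that both library types were made from the same sample, and no interaction fit matched them by sample.

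**Figure D3:**
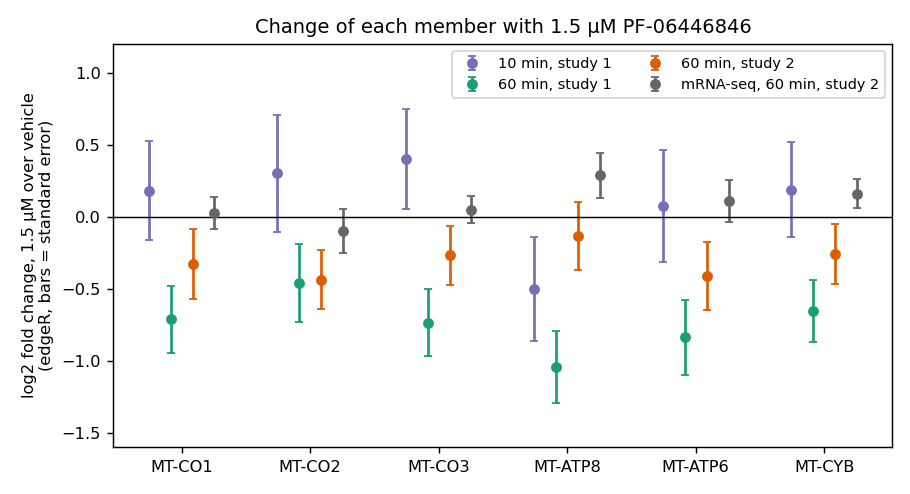
Log2 fold change of each transcript with 1.5 µM PF-06446846 over vehicle (edgeR, bars are standard errors) after 10 min and 60 min in the first study (n = 3 against 3) and after 60 min in ribo-seq and mRNA-seq of the second (n = 2 against 2). After 60 min all 6 ribo-seq estimates of either study are below 0, and none passed the FDR of 0.1 in these fits without a replicate block. With the block, 2 of 6 passed in the first study (0.463% of all transcripts). In the second study, where pairing was not established, 5 of 6 did (1.15%).

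At 0.3 µM and between times, differences lay within the spread of replicates. With 0.3 µM the edgeR log2 fold changes were 0.02 (MT-ATP8) to 0.57 (MT-CO1) after 10 min and -0.16 (MT-ATP6) to 0.03 (MT-CO2) after 60 min, each with a standard error of 0.31 to 0.65. Between vehicle libraries, 60 min against 10 min gave -0.02 (MT-ATP8) to 0.77 (MT-CO3). None of the 6 was called in these comparisons, where 0.0% of 11131, 11141 and 11098 transcripts passed and 104, 97 and 769 had an unadjusted p under 0.05. DESeq2 called 0 and 0 transcripts with 0.3 µM and 43 between the vehicle times, none of them among the 6. The summed log2 ratios were 0.45 (exact permutation p = 0.9), -0.13 (p = 0.7) and 0.53 (p = 0.4) in the same order. The 1.5 and 0.3 µM comparisons share their vehicle libraries.

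For the nuclear-encoded partners the medians lay near 0, and the difference between these lists and the mitochondrially encoded transcripts was not tested. After 60 min with 1.5 µM, the median log2 fold change was -0.01 over 10 nuclear subunits of complex IV, 0.03 over 17 of complex V, 0.05 over 9 of complex III, 0.01 over 30 assembly factors of these complexes and -0.05 over 17 factors of mitochondrial translation and mRNA. No gene of these lists was called, and the extremes among genes with at least 50 reads were ATP5MK, a small synthase subunit, at 0.74 (adjusted p = 0.171) and COX17, a copper chaperone of the oxidase, at -0.35. The complex IV list ran from COX6C at -0.34 to COX5B at 0.16, complex III from UQCRH at -0.03 to UQCR10 at 0.35, and complex V down to ATP5ME at -0.19. Translation factors ran from MTIF2, an initiation factor, at -0.20 to MTRF1L, a release factor, at 0.12, and COX14 was the highest assembly factor at 0.31. After 10 min, where 0.851% of all transcripts were called, 3 list genes were called by edgeR: UQCR10, a complex III subunit, rose by 0.87 (adjusted p = 0.0339), and COX6C (-0.54, adjusted p = 0.0863) and TFAM, the packaging factor of mitochondrial DNA (-0.56, adjusted p = 0.098), fell. Leaving out each of the 6 libraries in turn kept their directions and lost the edgeR call in 5 cases for COX6C and TFAM (adjusted p up to 0.383) and in 3 for UQCR10 (up to 0.228), and over codons after the 50th UQCR10 had -0.44 (adjusted p = 0.42). No list gene was called in the second study or with 0.3 µM.

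To see what the 6 do relative to each other, the reads of each were taken as a percent of the reads on all 6. MT-CO1 held a median of 51.7% of them over the 22 ribo-seq libraries (45.9% to 56.1%), MT-CO3 20.1%, MT-CYB 12.4%, MT-CO2 6.50%, MT-ATP6 6.34% and MT-ATP8 2.29%. In mRNA-seq MT-CO1 held 39.6% to 42.9%, MT-CO2 10.8% to 13.3% and MT-ATP8 0.910% to 1.28%. The coefficient of variation over the 22 libraries was 50.9% for the sum of the 6, 5.19% for the share of MT-CO1, 7.54% for MT-CO3, 9.83% for MT-ATP6, 11.1% for MT-CYB, 15.8% for MT-CO2 and 37.1% for MT-ATP8, which ranged from 1.04% to 4.31%.

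For 2 transcripts the share did not overlap between groups after 10 min. MT-CO3 held 18.1%, 18.0% and 18.9% with vehicle and 21.1%, 21.7% and 20.1% with 1.5 µM (means 18.3 ± 0.516 and 20.97 ± 0.764, SD, n = 3, exact permutation p = 0.1). MT-ATP8 held 3.40%, 3.18% and 2.36% with vehicle and 1.77%, 1.75% and 1.81% with 1.5 µM (2.98 ± 0.550 and 1.77 ± 0.0305, exact permutation p = 0.1). After 60 min all 6 shares overlapped. Of the second study, the shares of MT-CO2 (7.01% with vehicle, 6.35% with 1.5 µM) and MT-ATP6 (6.70% and 6.08%) did not. Over the 18 tests of shares no adjusted p was below 0.9, and 3 against 3 cannot go below 0.1 before adjustment. Shares are defined on the 6 transcripts alone, so no rate over all transcripts stands beside these counts. Groups of 2 libraries also separate by chance more often than groups of 3. Whether the counts exceed what is usual was not tested.

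Within each CDS the footprints were more unevenly spread than the mRNA reads. The density of a codon is given as its reads over the mean per codon of its CDS, so that an even spread would give 1. The highest codon of a CDS had a density of 10.6 (MT-ATP6) to 33.7 (MT-CO3) as a median over the ribo-seq libraries, and of 2.31 (MT-CO2) to 4.94 (MT-CO3, at codon 5) as a mean over the mRNA-seq libraries. The 3 leading codons of MT-ATP8 held a median of 72.9% of its footprints, those of MT-CO3 24.8%, and those of the other 4 between 10.5% (MT-CYB) and 13.2% (MT-CO1). The same codons held 0.453% to 7.57% of the mRNA reads. Profiles were alike between ribo-seq libraries, with median correlations over codons from 0.697 (MT-CO2) to 0.957 (MT-ATP8) over 231 pairs of libraries, and little like those of mRNA-seq, with medians of 0.0689 (MT-CO1) to 0.217 (MT-ATP8).

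**Figure D4:**
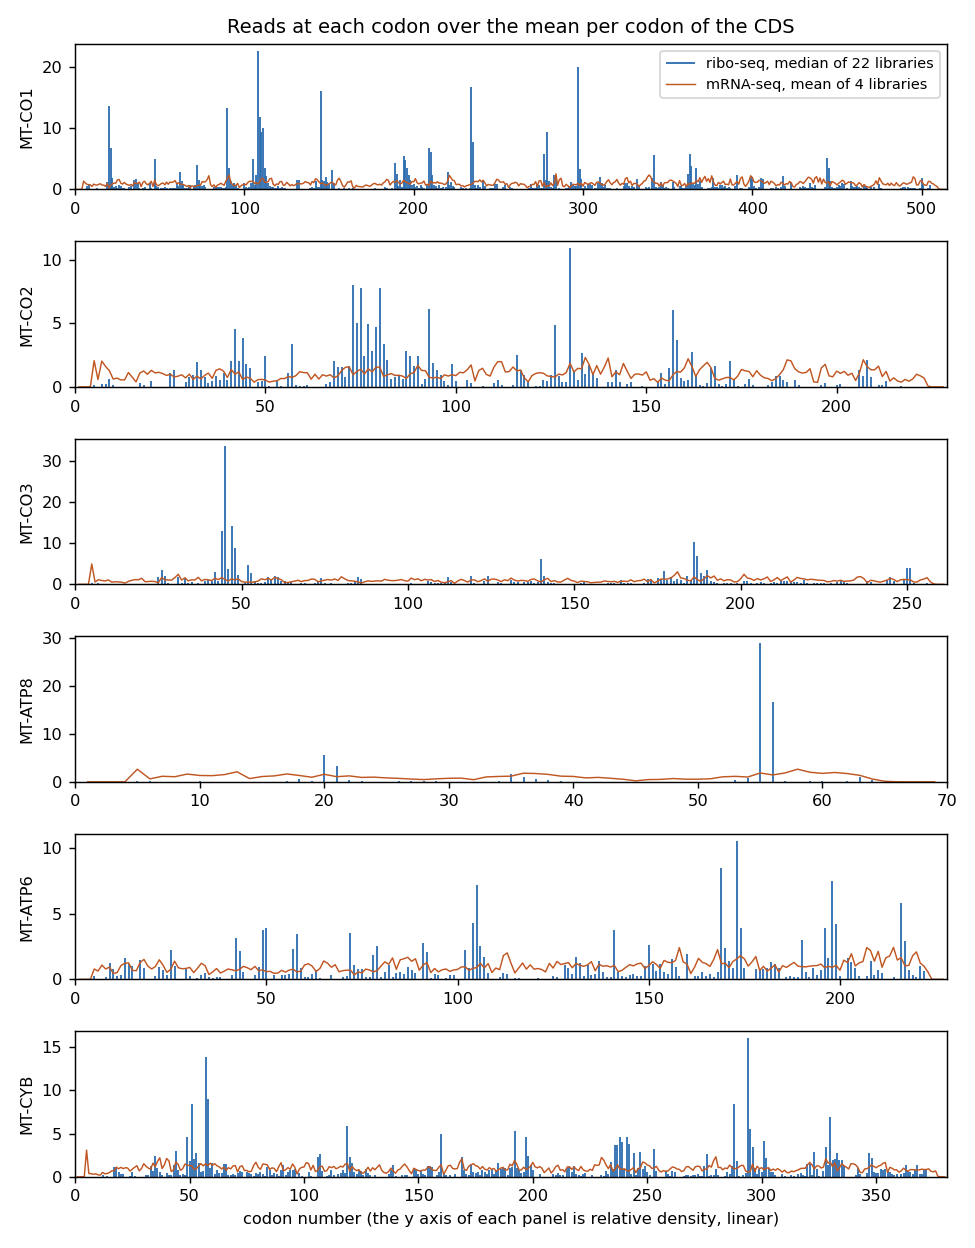
Reads at each codon over the mean per codon of the CDS (linear axes) against codon number, as the median of 22 ribo-seq libraries (vertical lines) and the mean of 4 mRNA-seq libraries (curve). Footprints gather at a few codons, such as codon 45 of MT-CO3 and codon 55 of MT-ATP8, where mRNA reads stay near 1 to 2.

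In MT-CO1 the leading codon 108 (TCT) had a median density of 22.7 (7.10 to 70.6), followed by 297 (ATA) with 20.0 and 234 (CTA) with 16.8. No mRNA-seq library exceeded 1.205 at these 3 codons. In MT-CO3, codon 45 (CTA) had a median of 33.7 (17.4 to 53.2), was the highest codon in 20 of 22 libraries and held a median of 12.9% of the footprints, and codons 47 (CTA, 14.2) and 44 (ATA, 13.0) lay beside it. In MT-CO2 the peaks were lower and varied more, with 10.9 at codon 130 (CCA), 8.03 at codon 73 (CTA) and 7.79 at codon 80 (TCC). The order of peaks differed between sets of libraries. Codon 234 of MT-CO1 had a median of 39.2 in the second study and 13.0 in the first, and codon 108 had 11.9 and 27.7. The order also differed within the first study. Vehicle means at codons 234 and 108 were 30.3 and 15.2 after 10 min. After 60 min they were 13.9 and 39.5.

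MT-ATP6 had its peaks at 3 CTA codons, 173 (10.6), 169 (8.53) and 198 (7.49). MT-CYB had them at codon 294 (CTA, 16.0) and at the adjoining codons 57 (CCA, 13.9) and 58 (GAC, 9.01). CTA, a leucine codon, accounted for 9 of the 18 leading codons of the 6 transcripts and for 6.61% of their 1679 codons. Leaving out 15 codons at both ends and the overlapping frames, the mean density of 101 CTA codons was 3.63 as a median over libraries (2.08 to 4.65), the highest of 29 codon types with at least 20 occurrences, and 1.05 to 1.08 in mRNA-seq. Single CTA codons differed, with a median density of 1.80 and 48 of the 101 above 2. Next came CCA (2.02) and TTA (1.90), and AAC (0.195) was the lowest. Codon positions here and elsewhere rest on the authors' placement of each read 14 nt from its 5′ end. Whether that placement fits footprints of mitochondrial ribosomes was not tested.

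No read was placed on codons 1 to 4 of any of the 6 in any library, mRNA-seq included. The mitochondrial reference transcripts begin at the first base of the CDS and the authors placed each read 14 nt from its 5′ end, so that a read starting at the first base falls in codon 5. Initiating ribosomes at the 5′ ends of MT-CO1, MT-CO2, MT-CO3, MT-ATP8 and MT-CYB are thus outside these counts. Of the 6 start sites, that of MT-ATP6 alone has counted sequence of 1 transcript on either side, since it lies inside MT-ATP8.

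MT-ATP8 and MT-ATP6 overlap by 46 nt. In the following sequence the ATG of MT-ATP6 and the TAG that ends MT-ATP8 are in capitals, and the stretch between them is read in both frames.
MT-ATP8 and MT-ATP6 overlap, chrM:8503-8584: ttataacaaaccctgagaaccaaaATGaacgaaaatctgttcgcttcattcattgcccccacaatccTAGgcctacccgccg
That ATG covers bases 162 to 164 of MT-ATP8. Footprints counted on MT-ATP8 gathered immediately after its first base, on codon 55 (TGA) with a median density of 28.9 (15.3 to 33.8) and codon 56 (ACG) with 16.7, which together are bases 163 to 168 of MT-ATP8. Codon 55 was the highest in 21 of 22 libraries. The 39 TGA codons of the 6 transcripts outside the overlap and the 15 codons at either end had a mean density of 0.220. The only other MT-ATP8 codon above 5 was codon 20 (CTA), at 5.68.

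**Figure D5:**
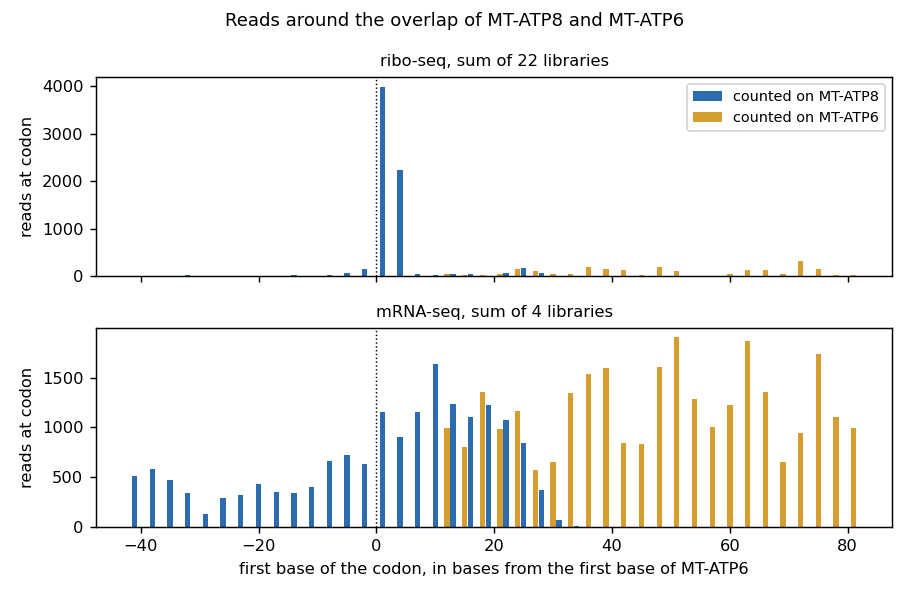
Reads at each codon around the overlap against the distance of the codon's first base from the first base of MT-ATP6 (dotted line), summed over 22 ribo-seq and over 4 mRNA-seq libraries, for codons counted on MT-ATP8 and on MT-ATP6. In ribo-seq 3988 and 2241 reads fall on the 2 MT-ATP8 codons just after the MT-ATP6 start, while mRNA reads show no such peak.

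Codons 55 and 56 held 44.02% to 83.6% of the MT-ATP8 footprints (median 65.01%) and 4.40% to 5.21% of its mRNA reads. The lowest share was in the third replicate of 0.3 µM after 60 min (114 of 259 reads, 95% Wilson interval 38.1% to 50.1%) and the highest in the first replicate of 0.3 µM after 10 min (153 of 183, 77.6% to 88.3%). These intervals cover counting error only and do not meet. Averaged over 9501 transcripts by the same placement, footprints had a mean density of 1.17 at codon 1, 0.621 at codon 2 and 0.368 to 0.521 at codons 3 to 10, and later codons were not averaged. The frame a footprint belongs to cannot be read from counts per codon, and the reads on codons 55 and 56 cannot be told apart as elongation on MT-ATP8 or initiation on MT-ATP6.

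Without these reads MT-ATP8 was no longer level with MT-ATP6. Leaving out the overlap from both, the median level over the 22 ribo-seq libraries was 176 RPM per 1000 codons for MT-ATP8 (46.6 to 453) and 419 for MT-ATP6 (105 to 1081). In mRNA-seq the levels on the same codons were 6132 to 11047 and 15257 to 21603. Reads that start within the overlap can be counted on both transcripts, and codons they can reach held 1.61% to 10.0% of MT-ATP8 and 1.48% to 6.13% of MT-ATP6 footprints.

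Reads on codons 55 and 56 were also set against MT-ATP6 reads, as a ratio within each library. MT-ATP6 reads are the denominator of the ratio and part of the sum of the 6 transcripts, so ratio and sum are not independent. The library with the lowest sum had the highest ratio in 5 of the 6 groups of the first study, and it was replicate 1 each time. In the remaining group, vehicle after 60 min, replicate 1 had the highest sum and the lowest ratio. With 0.3 µM after 10 min, sums of 420, 1491 and 3792 RPM went with ratios of 0.648, 0.265 and 0.142. The part of this in the differences between groups was not tested. After 10 min the ratio was 0.387, 0.256 and 0.2375 with vehicle and 0.174, 0.156 and 0.136 with 1.5 µM, with means of 0.294 ± 0.0815 and 0.155 ± 0.0189 (SD, n = 3, exact permutation p = 0.1). The groups did not overlap, and the treated libraries were the lower. After 60 min it was 0.1205, 0.385 and 0.134 with vehicle and 0.203, 0.114 and 0.124 with 1.5 µM, and the groups overlapped (0.213 ± 0.149 and 0.147 ± 0.0486, exact permutation p = 0.6). Replicates 4 and 5 of the second study had 0.328 and 0.302 with vehicle and 0.399 and 0.40 with 1.5 µM (0.315 ± 0.0184 and 0.399 ± 0.000391, exact permutation p = 0.33), with the treated libraries the higher.

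These reads moved the estimate for MT-ATP8. With its codons 54 to 57 left out, an alternative chosen after the data had been seen, the edgeR log2 fold change with 1.5 µM was -0.10 after 10 min in place of -0.50, -0.82 after 60 min in place of -1.05, and -0.31 in place of -0.13 in the second study. None of these was called.

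The position of the footprints was then compared between groups with the measures the study used for stalling. The mean read position, as a fraction of CDS length, had ribo-seq medians of 0.424 for MT-CO1, 0.425 for MT-CO3, 0.436 for MT-CO2, 0.521 for MT-CYB, 0.558 for MT-ATP6 and 0.681 for MT-ATP8. After 10 min it did not overlap between groups for 2 of 6 transcripts, MT-CO2 (0.458 ± 0.00635 with vehicle and 0.431 ± 0.00581 with 1.5 µM, SD, n = 3, exact permutation p = 0.1) and MT-ATP8 (0.692 ± 0.0294 and 0.647 ± 0.00944, p = 0.1). Both shifted toward the 5′ end, and of 8711 transcripts with at least 50 reads in each library 28.8% did not overlap in either direction. After 60 min 0 of 6 were free of overlap (10.8% of 8279 transcripts). In the second study 2 of 6 were, MT-CO2 (0.491 and 0.494) and MT-CO3 (0.453 and 0.445), against 33.4% of 9299 transcripts, and over the 18 tests no adjusted p was below 0.9.

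The largest excess of the cumulative fraction of reads with 1.5 µM over vehicle (Dmax) was computed on pooled replicates. Its Z-score is Dmax over the root mean square for transcripts of similar read count. It is not centred on their mean, so a value above 0 is not by itself above the average. None of the 6 reached a Z-score of 2 in any comparison, a value reached by 3.48% of 11422 transcripts after 10 min, 2.67% of 11442 after 60 min and 2.38% of 11405 in the second study. The highest was MT-CO3 after 10 min, at 1.91, with an excess of 14.9% of its reads by codon 72, downstream of the peak at codons 44 to 47. It stood above 95.8% of transcripts. With vehicle replicate 1, vehicle replicate 3 or replicate 3 of 1.5 µM left out, MT-CO3 reached a Z-score of 2 (2.14, 2.15 and 2.07), as did 3.62%, 3.69% and 3.45% of all transcripts. MT-ATP8 did so after 60 min without replicate 1 of 1.5 µM (2.03), with 2.60% of transcripts. After 60 min the highest was MT-ATP8 at 1.08, above 72.4% of transcripts. In the second study the Z-scores ran from 0.43 (MT-CO1, above 21.8% of transcripts) to 0.80 (MT-CO3, above 52.5%).

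The density at the 18 leading codons was then compared between groups, and the codons free of overlap were not the same in each comparison. After 10 min, codon 45 of MT-CO3 had a density of 27.4 ± 4.89 (SD, n = 3) with vehicle and 45.5 ± 8.55 with 1.5 µM (exact permutation p = 0.1). Codon 234 of MT-CO1 had 30.3 ± 14.6 and 8.16 ± 3.46 (exact permutation p = 0.1), and codon 55 of MT-ATP8 30.5 ± 1.48 and 22.1 ± 0.381 (exact permutation p = 0.1). These 3 of the 18 leading codons did not overlap between groups, against 25.0% of 164044 codons of all transcripts with at least 10 reads on average. After 60 min 1 of the 18, codon 44 of MT-CO3, did not (19.5 ± 5.13 and 12.5 ± 0.142, exact permutation p = 0.1), against 8.19% of 183206 codons, and codon 45 of MT-CO3 had 42.7 ± 10.2 and 44.02 ± 9.96. Of the 18, 8 did not overlap in the second study, where 32.5% of 189620 codons did not, among them codon 108 of MT-CO1 (16.5 ± 6.11 and 10.7 ± 1.40, SD, n = 2, exact permutation p = 0.33) and codon 47 of MT-CO3 (means of 13.8 and 18.5). Codon 108 of MT-CO1, the highest peak of that transcript, had 15.2 ± 9.34 and 32.8 ± 11.1 after 10 min and 39.5 ± 17.1 and 27.8 ± 9.55 after 60 min, with overlapping groups at both times.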

How the data were processed

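Codon counts were analysed for 22 ribo-seq and 4 mRNA-seq libraries of Huh7 cells, grouped by the submitters' labels. The authors trimmed adapters with Fast-X, discarded rRNA and mapped what remained with Bowtie 1.1.2 to the most abundant isoform of each gene (chosen with kallisto 0.42.5 at a TPM of at least 1, Ensembl 78, GRCh38), kept reads with 5 or fewer best sites, counted them at each, and placed fragments of 26 to 34 nt by a 14 nt offset. The deposited values are raw counts of reads per codon. A read that fits 2 places is counted in both, and nuclear copies of mitochondrial genes were not examined.

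Counts were summed per CDS and tested with edgeR 4.0.16 (filterByExpr, TMM, glmQLFit, glmQLFTest, Benjamini-Hochberg, FDR 0.1) in R 4.3.3, on the compared groups only. DESeq2 1.42.0, other filters, codons, size factors, a replicate block and leaving out each library were alternatives. Single values per library had two-sided exact permutation tests, without pairing, in Python 3.11.15 with scipy 1.17.1. For the summed reads these ran on log2 values. Dmax used pooled replicates, at least 10 reads per group and bins of 300 transcripts. Depth was 6414227 to 22224137 CDS reads (ribo-seq) and 15227654 to 22036358 (mRNA-seq). The 6 transcripts had a median of 320.5 (MT-ATP8) to 7838 (MT-CO1) ribo-seq reads per library, which sets their counting error. The steps were tested on simulated data.

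The labels give replicate numbers but no shared culture. For the second study, the paper states that ribo-seq and mRNA-seq were made from the same sample. Libraries of the same number deviated together, with correlations over 0.1 in every pair for 1.5 µM (0.409 to 0.535) and 0.3 µM (0.434 to 0.559) with vehicle after 60 min and for 0.3 µM after 10 min (0.154 to 0.538), which was taken as pairing, and not for 1.5 µM after 10 min (0.0573 to 0.238). Ribo-seq of the second study, with only 2 pairs, had 0.297, which was not taken as pairing. One file carries another replicate number than its label, and the label was used.

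The 6 transcripts and the gene lists were chosen with earlier results of these data known. Named are the 6 in every comparison, every list gene called, the highest and lowest list genes after 60 min of 1.5 µM, and the 5 transcripts most like the mean of the 6. ABRACL and the codon positions were named after their values were seen. Of the lists, 7 of 7 complex I (mitochondrial), 10 of 12 complex IV, 17 of 18 complex V, 9 of 9 complex III, 17 of 20 translation and 30 of 30 assembly genes matched. ALB, PTPRC and COL1A2 were not matched.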

Additional observations from a re-analysis of the deposited data

Results flagged for a closer look

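For 4 of 38 quantities every library with 1.5 µM lay on 1 side of vehicle after 10 min and on the opposite side in the second study after 60 min, and the difference between the studies was not tested. The density at codon 234 of MT-CO1 was lower by 22.1 in the 10 min libraries (treated minus vehicle -22.1) and higher in the second study (8.43). The mean read position of MT-CO2 differed by -0.0269 of the CDS length after 10 min and by 0.00313 in the second study. The ratio of reads at MT-ATP8 codons 55 and 56 to MT-ATP6 reads differed by -0.138 and by 0.0846 in the same order. The percent of MT-ATP8 reads on the same 2 codons, which share their reads with that ratio, differed by -11.6 (68.1 to 56.6) and by 3.57 (67.2 to 70.8). Over all codons and transcripts with enough reads in both comparisons, 3.85% of 125259 codons and 3.67% of 8655 transcripts were apart in opposite directions in the same way, by relative density and by mean read position. In the 60 min libraries of the first study the groups overlapped for all 4 quantities, with treated minus vehicle at -3.49, -0.0013, -0.0661 and -4.07 in the order given.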

How the results depend on the processing

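Of 115 counts of called transcripts among the 6 under alternatives, 109 stayed at 0. The exceptions were, for 1.5 µM against vehicle, DESeq2 after 60 min (1), leaving out a library after 60 min (0 to 1, with 1 without vehicle replicate 3) and in ribo-seq of the second study (0 to 6, with 6 without replicate 5 of 1.5 µM, where 1.14% of transcripts were called and the lone treated library is assumed to vary like vehicle), and the replicate block. With the replicate number as a block, 2 were called after 10 min (MT-CO2 and MT-CO3, where the numbers did not pair the libraries and 10.8% of all transcripts were called), 2 after 60 min (0.463%) and 5 in ribo-seq of the second study (all but MT-ATP8, with 2 pairs correlated at 0.297 and 1.15% of transcripts called), and the block changed no other call. The mean read position differed in 1 direction within every number for 5 of 6 transcripts after 10 min (44.4% of all transcripts), 0 after 60 min (32.1%) and 2 in the second study (49.6%), 7 in place of 4 non-overlapping differences. Crossed numbers were not tried.

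Leaving out a library in turn reversed some directions. Log2 fold changes with 1.5 µM after 10 min then ran from -0.20 to 0.67 for MT-CO1, -0.14 to 0.82 for MT-CO2, -0.86 to 0.18 for MT-ATP8, -0.34 to 0.70 for MT-ATP6 and -0.19 to 0.72 for MT-CYB. In ribo-seq of the second study they ran from -0.86 to 0.0625 for MT-CO1, -0.71 to 0.067 for MT-CO3, -0.73 to 0.28 for MT-ATP8, -1.002 to 0.00145 for MT-ATP6 and -0.75 to 0.10 for MT-CYB. In mRNA-seq the ranges were -0.17 to 0.20 for MT-CO1, -0.43 to 0.17 for MT-CO2, -0.0805 to 0.17 for MT-CO3 and -0.18 to 0.35 for MT-ATP6, and for translational efficiency -0.90 to 0.0422 for MT-CO1, -0.85 to 0.0244 for MT-CO2 and -0.77 to 0.0203 for MT-CO3. The summed log2 ratios ran from -0.24 to 0.68 with 1.5 µM after 10 min, -0.55 to 0.98 and -0.68 to 0.29 with 0.3 µM after 10 and 60 min, -0.81 to 0.0619 in ribo-seq and -0.12 to 0.21 in mRNA-seq of the second study. After 60 min with 1.5 µM all 6 log2 fold changes stayed below 0 under every alternative.

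Non-overlapping shares numbered 4, and 4 to 8 with a library left out (8 without vehicle replicate 4 of the second study). Without that library 1 vehicle library stood against 2 treated ones, and groups this small separate more easily by chance. The rise to 8 therefore cannot be read as a difference with treatment. Transcripts with a Dmax Z-score of 2 numbered 0 to 1 with a library left out, both after 10 and after 60 min (without replicate 1 of 1.5 µM). The mean MT-ATP8 level of 508 RPM per 1000 codons became 267 without 15 codons at either end and 198 without the overlap, which take out codons 55 and 56. Of the 3 leading codons, the second study alone shared 1 with all libraries for MT-CO1 and 1 for MT-CO2. The cause of the other changes was not tested, and depth limits MT-ATP8 most, with as few as 99 footprints in a library.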
